A study of Homo sapiens with 4 samples.

Results

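The genes described here are 37 genes of DNA repair and of the checkpoint that halts the cell cycle after DNA damage, found by their symbols among 58302 gene rows of an expression table. All 37 were present, 1 row each. They comprise 13 genes of homologous recombination, 11 of the Fanconi anaemia pathway, 2 of mismatch repair, 7 of end joining and 4 checkpoint kinases. RNA was sequenced from BLaER1, a human leukaemia line of B lineage with a fusion of C/EBPα, a myeloid transcription factor, to the part of the oestrogen receptor that binds hormone, which lets oestradiol turn the cells towards macrophages. Cells of both stages carry that fusion. There were 2 libraries of undifferentiated cells, the line before the switch. A further 2 libraries came from cells that had been given oestradiol (100 nM) together with IL-3 and M-CSF for 5 to 6 days to differentiate them. IL-3 was at 10 ng/ml, and the dose of M-CSF is not stated separately. The labels carry the treatment text on all 4 libraries, and the stage of each library was taken from its title. Whether the pair of libraries of each stage had separate cultures as source is not stated, so p-values reflect how far these libraries differ from each other and that spread may be technical.

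A cell can mend a broken chromosome in several ways. Homologous recombination copies the lost sequence from the sister chromatid, which exists only after replication, whereas end joining ligates the ends directly and works in resting cells as well. The Fanconi anaemia proteins unhook cross-linked DNA strands and hand the break to recombination, mismatch repair corrects errors of replication, and the kinases ATM and ATR sense damage and act through CHEK2 and CHEK1. In developing B cells, end joining also closes the breaks made during rearrangement of immunoglobulin genes. Macrophages derived from blood precursors divide little or not at all.

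Values are TPM, the share of a library's transcripts that come from a gene after correction for its length, so genes can be compared with each other. Read numbers cannot be recovered from TPM and the depth is unknown. In bulk RNA fewer cells of a type and less RNA per cell cannot be told apart. A gene is referred to as called when limma's test on log2(TPM + 1) gave a Benjamini-Hochberg adjusted p below 0.05 over 10180 genes, those that reached 1 TPM in 2 or more libraries. Fold changes on that scale understate the change of genes with low TPM. The stage labels were checked on marker genes: 12 of 12 macrophage markers were called higher and 13 of 13 tested B lineage markers called lower in differentiated cells, with CD163, FCGR1A and MSR1 listed at 0 in both undifferentiated libraries. Of 7 T cell markers 2 were tested and went opposite ways: TRAC, a T cell receptor gene, fell from 109.90 and 51.47 TPM to 3.82 and 6.61 TPM, and CD4, which macrophages also express, rose from 0 and 0.05 TPM to 2.07 and 3.03 TPM. CD3D and CD3E were listed at 0 in every library. Of 8 erythroid and megakaryocyte markers, PPBP rose from 0.09 and 0 TPM to 22.55 and 23.69 TPM, and the other 7 were below the filter, with PF4 at 0 and 0.14 TPM after differentiation and ITGA2B at 0 in both libraries. None of 8 fibroblast and epithelial markers passed it. The part of such cells in the results was not tested. B lineage markers summed to 21.9 and 23.3 TPM after differentiation against 670 and 400 TPM before it. Protein-coding genes made up 12.2% and 13.5% of the summed TPM in differentiated and 23.0% and 15.6% in undifferentiated libraries, so scaling matters. The median log2 difference over tested genes was -0.14 as deposited, 0.04 after median-of-ratios scaling and 0.37 over protein-coding genes rescaled alone. Undifferentiated library 1 lay above library 2 by a median of 0.505 on the log2 scale.

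Most of the repair and checkpoint genes were lower in differentiated cells, and the size of the difference varied widely among them. Both differentiated libraries lay below both undifferentiated ones for 34 of the 37 genes, a pattern found in 39.0% of all tested genes. ATM lay the other way, and the libraries overlapped for ATR and NHEJ1. Of the 35 genes above that minimum, 25 were called lower, 0 higher and 10 were not called. Over all tested genes 22.8% were called lower and 18.6% higher. Of the 35 genes, 17 were below 1 TPM in both differentiated libraries and entered the test through the undifferentiated ones, so they had to differ, and the count called lower depends partly on the filter. FANCC and FANCF were not tested. Contrasts between members that were called and members that were not were themselves not tested. The 10 members not called are named with their values in the sections on their pathways. The count called lower was 25 to 28 under the 4 other scalings, but it fell to 6 when either differentiated library was left out. It was 23 without undifferentiated library 1 and 30 without library 2. Over all tested genes, 2649 of 10180 were called lower after median-of-ratios scaling and 2995 of 10180 after quantile normalization. Over protein-coding genes rescaled alone 2153 of 11945 were, and 2554 of 15721 after rescaling without the 100 most abundant genes. Without a filter on low values 9 members were called lower, at a minimum of 5 TPM 11 of 12 tested, and 11 when the test was against a log2 difference of 1.

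**Figure D1:**
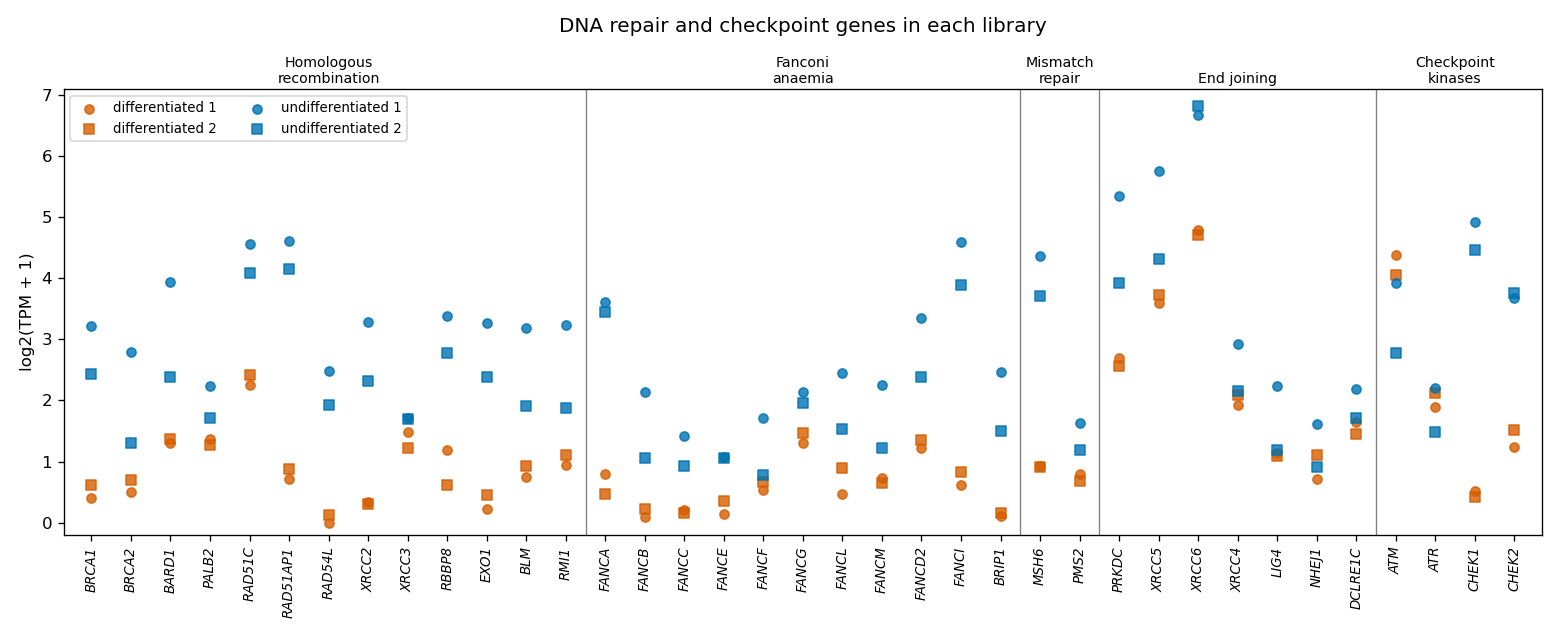
log2(TPM + 1) of the 37 genes, grouped by pathway, in each of the 4 libraries; orange marks differentiated and blue undifferentiated cells, and circles and squares mark replicates 1 and 2. The orange points lie below both blue points for 34 genes, and above both for ATM.

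Most genes that find, resect and copy broken ends by homologous recombination were called lower in differentiated cells. Of 13 genes, 11 were called lower and 0 higher, with a median log2 difference of -1.99 against -0.14 over all tested genes, of which 22.8% were called lower. The sum of the 13 genes was 13.3 and 13.9 TPM in differentiated and 129 and 69.9 TPM in undifferentiated libraries. Of the 11 called, 7 had passed the filter only through undifferentiated cells, and without the filter 3 were called. With differentiated library 1 or 2 left out, 1 and 2 of the 13 genes were called.

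RAD51AP1 had the lowest log2 difference of this group on the log2(TPM + 1) scale. With a pseudocount of 0.1, RAD54L was lower (-4.75 against -4.58 for RAD51AP1), as it was after rescaling without the 100 most abundant genes (-4.37 against -4.26). RAD51AP1, which helps the recombinase pair a broken end with its template, stood at 0.64 and 0.84 TPM in differentiated and at 23.37 and 16.86 TPM in undifferentiated cells, a log2 difference of -3.59 ± 0.39 (SE, n = 2 per stage, limma adjusted p = 1.56e-05). Its call held with each library left out in turn and under every alternative in which it was tested. The promoter of RAD51AP1 is shown because its call was among the 4 that held under every alternative. The stretch covers the 180 bases before the transcription start in RefSeq (GRCh38.p14, chr12:4538710-4538889, plus strand), 5′ to 3′, with the reverse complement of a CCAAT box, an element common in promoters of cell cycle genes, in capitals.

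RAD51AP1: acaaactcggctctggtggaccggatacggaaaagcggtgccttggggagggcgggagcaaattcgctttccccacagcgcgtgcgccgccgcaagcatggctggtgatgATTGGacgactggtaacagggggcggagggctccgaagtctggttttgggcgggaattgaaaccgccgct

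BRCA1, BARD1 and BRCA2 fell, and the protein that bridges them was not called. BRCA1, a ubiquitin ligase subunit that promotes resection and loading of the recombinase, stood at 0.32 and 0.53 TPM in differentiated and at 8.32 and 4.41 TPM in undifferentiated cells (log2 difference -2.32 ± 0.38, SE, adjusted p = 0.000301). Its obligate partner BARD1 was at 1.48 and 1.58 TPM against 14.31 and 4.25 TPM, a log2 difference of -1.83 (adjusted p = 0.00856). BRCA2, which loads the recombinase onto single-stranded DNA, was at 0.42 and 0.62 TPM against 5.94 and 1.48 TPM, -1.45 on the log2 scale (adjusted p = 0.013). For all 3 genes both differentiated libraries lay below the 2 undifferentiated libraries, which were far apart. PALB2, the bridge between BRCA1 and BRCA2, was at 1.57 and 1.41 TPM against 3.74 and 2.26 TPM and was not called (-0.66, 95% confidence interval -1.43 to 0.11, adjusted p = 0.158). PALB2 was called lower after quantile normalization (adjusted p = 0.0191), with the length trend removed (adjusted p = 0.0222) and without undifferentiated library 2 (adjusted p = 0.0212). BRCA1, BRCA2 and BARD1 lost their calls with either differentiated library left out (adjusted p from 0.0968 to 0.33).

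Genes of resection and of the dissolution of joined DNA molecules were also lower. RBBP8, better known as CtIP, starts resection, and was at 1.29 and 0.54 TPM in differentiated against 9.41 and 5.85 TPM in undifferentiated cells (log2 difference -2.17, adjusted p = 0.000805). EXO1, the exonuclease that extends resection and also serves mismatch repair, was at 0.16 and 0.36 TPM against 8.62 and 4.25 TPM (-2.50, adjusted p = 0.000164). In both genes the lowest undifferentiated library stood well above the highest differentiated one. BLM, the helicase that dissolves joined DNA molecules, was at 0.68 and 0.91 TPM against 8.14 and 2.74 TPM (-1.71, adjusted p = 0.00632). RMI1, which works in the same complex, was at 0.93 and 1.15 TPM against 8.37 and 2.67 TPM (-1.53, adjusted p = 0.0145). These 4 calls were lost with either differentiated library left out (adjusted p from 0.082 to 0.344) and without a filter on low values (0.0565 to 0.202).

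Of the other relatives and helpers of the recombinase, RAD54L, XRCC2 and RAD51C were called lower and XRCC3 was not. RAD54L, a motor protein that remodels the paired DNA, had listed values of 0 and 0.09 TPM in differentiated cells and of 4.62 and 2.81 TPM in undifferentiated ones (log2 difference -2.15, adjusted p = 6.25e-05). XRCC2 was at 0.27 and 0.24 TPM against 8.80 and 3.99 TPM (-2.48, adjusted p = 0.000195), and its paralogue RAD51C was at 3.78 and 4.33 TPM against 22.72 and 16.06 TPM (-1.99, adjusted p = 0.00103). RAD51C had the highest TPM of the 13 recombination genes in both differentiated libraries. XRCC3, which pairs with RAD51C, was at 1.81 and 1.32 TPM against 2.27 and 2.23 TPM and was not called (-0.35, 95% confidence interval -1.06 to 0.36, adjusted p = 0.426). XRCC3 was called lower with the GC trend removed (adjusted p = 0.0248). Calls were lost for XRCC2 and RAD51C without either differentiated library (adjusted p from 0.0987 to 0.125) and for RAD54L without differentiated library 1 (adjusted p = 0.0627).

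Fanconi anaemia genes were called lower in both of the pathway's steps, although several were barely expressed at either stage. Of 11 genes, 9 were tested, 8 of these were called lower and 0 higher, and the median log2 difference of the 9 was -1.44. The share called lower over all tested genes was 22.8%. Of the 8 called, 7 were below 1 TPM in both differentiated libraries and passed the filter only through undifferentiated cells, and without the filter 2 were called. Their sum was 5.96 and 7.16 TPM in differentiated and 68.2 and 39.7 TPM in undifferentiated libraries. Of the 9 genes, 3 and 2 were called without differentiated library 1 or 2.

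The 2 proteins that are clamped onto damaged DNA, FANCD2 and FANCI, form a pair, and both were called lower. FANCI stood at 0.54 and 0.77 TPM in differentiated and at 23.09 and 13.76 TPM in undifferentiated cells (log2 difference -3.51 ± 0.40, SE, adjusted p = 2.36e-05), and its call held with each library left out. FANCD2 was at 1.33 and 1.56 TPM against 9.15 and 4.24 TPM (-1.58 ± 0.42, SE, adjusted p = 0.00852, and 0.286 and 0.253 without differentiated library 1 or 2). The partners thus exchanged order: FANCD2 stood at 0.396 and 0.308 of the FANCI level before differentiation and at 2.46 and 2.03 of it afterwards.

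The core complex, which attaches ubiquitin to that pair, was led by FANCA. FANCA, one of its subunits, was at 0.73 and 0.38 TPM in differentiated and at 11.27 and 9.97 TPM in undifferentiated cells (log2 difference -2.91 ± 0.38, SE, adjusted p = 5.84e-05, and 0.0616 without differentiated library 2). FANCL, the ubiquitin ligase itself, was at 0.39 and 0.86 TPM against 4.48 and 1.89 TPM (-1.31, adjusted p = 0.00991). FANCB was at 0.07 and 0.17 TPM against 3.42 and 1.08 TPM (-1.44, adjusted p = 0.00206). FANCE, which links the core complex to FANCD2, was low throughout at 0.10 and 0.28 TPM against 1.10 and 1.07 TPM (-0.81, adjusted p = 0.00343). FANCM, the translocase that anchors the complex on DNA, was at 0.65 and 0.56 TPM against 3.79 and 1.33 TPM (-1.06, adjusted p = 0.0245). FANCL, FANCB and FANCM were not called with either differentiated library left out (adjusted p from 0.113 to 0.341), FANCM also not without undifferentiated library 1 (adjusted p = 0.0556), and FANCE and FANCM not with eBayes without a trend (adjusted p = 0.0667 and 0.0594). FANCG was at 1.48 and 1.77 TPM against 3.39 and 2.90 TPM and was not called (-0.66, 95% confidence interval -1.42 to 0.10, adjusted p = 0.153), but was called lower after quantile normalization (adjusted p = 0.036), with the GC trend removed (adjusted p = 0.00101) or the length trend removed (adjusted p = 0.0232), and without undifferentiated library 2 (adjusted p = 0.0441). The untested FANCC was at 0.15 and 0.12 TPM against 1.66 and 0.90 TPM. The untested FANCF was at 0.44 and 0.58 TPM against 2.27 and 0.72 TPM. In each of these 8 genes both differentiated libraries were lower, by a margin that was small for FANCF.

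BRIP1, a helicase that binds BRCA1 and links the pathway to recombination, stood at 0.08 and 0.11 TPM in differentiated and at 4.54 and 1.84 TPM in undifferentiated cells (log2 difference -1.86, adjusted p = 0.000374, and 0.0954 and 0.0858 without differentiated library 1 or 2). The promoters of BRIP1 and FANCA are shown in the same way as that of RAD51AP1, since a search of these windows gave 3 CCAAT boxes in BRIP1 and both a CCAAT box and an E2F motif in FANCA. E2F proteins are the factors that switch on genes needed for replication. The stretches are chr17:61863529-61863708 and chr16:89816648-89816827 of GRCh38.p14 in RefSeq, both read on the minus strand, with CCAAT or its reverse complement and the reverse complement of the E2F motif TTTGCCGC in capitals.

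BRIP1: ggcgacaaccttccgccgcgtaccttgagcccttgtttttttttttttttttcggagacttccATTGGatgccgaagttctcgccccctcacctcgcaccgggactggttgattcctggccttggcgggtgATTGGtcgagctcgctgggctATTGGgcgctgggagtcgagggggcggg

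FANCA: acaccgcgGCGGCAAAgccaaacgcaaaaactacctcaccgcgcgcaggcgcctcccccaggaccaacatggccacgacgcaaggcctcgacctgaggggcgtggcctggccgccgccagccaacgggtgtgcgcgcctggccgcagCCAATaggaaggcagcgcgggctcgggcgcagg

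Of the 2 mismatch repair genes, the one that recognises the mismatch was called lower and the one that acts after it was not, a contrast that was not itself tested. MSH6, part of the sensor of base mismatches, stood at 0.91 and 0.88 TPM in differentiated and at 19.63 and 12.02 TPM in undifferentiated cells (log2 difference -3.11 ± 0.40, SE, adjusted p = 5.12e-05). Its call held with each library left out. PMS2, the endonuclease subunit that nicks the new strand, was at 0.73 and 0.60 TPM against 2.11 and 1.29 TPM and was not called (-0.68, 95% confidence interval -1.25 to -0.11, adjusted p = 0.0551). PMS2 was called lower after median-of-ratios scaling (adjusted p = 0.0242), after quantile normalization (adjusted p = 0.00603), with the length trend removed (adjusted p = 0.0264) and without undifferentiated library 2 (adjusted p = 0.0128). PMS2 has many near-identical pseudogenes, of which 11 had rows in the table, summing to 6.36 and 5.65 TPM in differentiated and 8.53 and 5.64 TPM in undifferentiated cells. Reads shared with these copies may have been split between rows, so the value of PMS2 is uncertain.

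In end joining the 3 genes called lower encode the proteins that bind broken ends, and the 4 not called encode those that process and seal them. Of 7 genes, 3 were called lower, 0 higher and 4 were not called, with a median log2 difference of -0.59 (-0.30 over protein-coding genes rescaled alone, where 2 genes were called). Over all tested genes the share called lower was 22.8% as deposited and 18.0% over protein-coding genes rescaled alone. Without either differentiated library none was called, and 2 and 5 were called without undifferentiated library 1 or 2. The group summed to 50.2 and 49.7 TPM in differentiated and to 210 and 153 TPM in undifferentiated libraries. In summed TPM it was the largest of the 5 groups in every library.

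The Ku proteins form a ring that slides onto a broken end. XRCC6 (Ku70), which had the highest TPM of the 37 genes in every library, stood at 26.83 and 25.19 TPM in differentiated and at 101.45 and 111.66 TPM in undifferentiated cells (log2 difference -1.99 ± 0.35, SE, adjusted p = 0.000527). XRCC5 (Ku80) was at 11.09 and 12.28 TPM against 53.08 and 18.92 TPM (-1.37 ± 0.46, SE, adjusted p = 0.0295). PRKDC, the kinase that Ku recruits, was at 5.49 and 4.94 TPM against 39.58 and 14.25 TPM (-2.0 ± 0.46, SE, adjusted p = 0.00363). The undifferentiated libraries agreed on XRCC6 and differed widely on XRCC5 and PRKDC. XRCC5 was not called when protein-coding genes alone were rescaled (adjusted p = 0.0529), after rescaling without the 100 most abundant genes (adjusted p = 0.0586) or without undifferentiated library 1 (adjusted p = 0.0698). Leaving out a differentiated library ended all 3 calls (adjusted p from 0.0641 to 0.362).

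The ligation and processing genes showed smaller differences and were not called. LIG4, the ligase, was at 1.21 and 1.13 TPM in differentiated and at 3.70 and 1.27 TPM in undifferentiated cells (log2 difference -0.59, 95% confidence interval -1.39 to 0.21, adjusted p = 0.223). XRCC4, its scaffold, was at 2.81 and 3.26 TPM against 6.56 and 3.46 TPM (-0.53, 95% confidence interval -1.41 to 0.35, adjusted p = 0.325). NHEJ1, also called XLF, was at 0.64 and 1.15 TPM against 2.07 and 0.87 TPM, with overlapping libraries (-0.35, 95% confidence interval -1.0 to 0.29, adjusted p = 0.373). DCLRE1C, the Artemis nuclease that opens hairpins during immunoglobulin gene rearrangement, was at 2.14 and 1.73 TPM against 3.54 and 2.26 TPM (-0.39, 95% confidence interval -1.18 to 0.40, adjusted p = 0.417). In LIG4, XRCC4 and DCLRE1C undifferentiated library 2 lay only just above the differentiated libraries. LIG4 and XRCC4 were called lower without that library (adjusted p = 0.0109 and 0.0297). The intervals still include falls of more than 1 on the log2 scale for LIG4, XRCC4 and DCLRE1C.

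Among the checkpoint kinases the effector kinases fell, whereas the damage sensors were not called. Of 4 genes, 2 were called lower, 0 higher and 2 were not called, against 22.8% of all tested genes called lower and 18.6% higher. CHEK1, the effector of ATR that slows replication, stood at 0.43 and 0.33 TPM in differentiated and at 29.36 and 21.17 TPM in undifferentiated cells. The log2 difference of -4.23 ± 0.39 (SE, adjusted p = 4.5e-06) was the lowest among the tested members, and the call held with each library left out. CHEK2, the effector of ATM, was at 1.36 and 1.86 TPM against 11.87 and 12.52 TPM (-2.34 ± 0.38, SE, adjusted p = 0.0003, and 0.0958 and 0.0728 without differentiated library 1 or 2). CHEK1 was above CHEK2 in both undifferentiated libraries, at 2.47 and 1.69 of its level, and below it in both differentiated ones, at 0.316 and 0.177.

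ATM was the only member whose differentiated libraries both lay above the undifferentiated ones. It stood at 19.95 and 15.71 TPM in differentiated and at 14.16 and 5.83 TPM in undifferentiated cells. The lower differentiated library thus lay only a little above the higher undifferentiated one, and ATM was not called as deposited (log2 difference 0.88, 95% confidence interval -0.06 to 1.82, adjusted p = 0.126). Other treatments of the table gave a call for higher ATM: median-of-ratios scaling (adjusted p = 0.0135), quantile normalization (adjusted p = 0.0146), rescaling over protein-coding genes (adjusted p = 0.00598) or without the 100 most abundant genes (adjusted p = 0.0294). It was also called higher once the trend with GC (adjusted p = 0.000294) or with length (0.00159) was taken out and without undifferentiated library 1 (adjusted p = 0.0107). More genes of the whole table were also called higher under these scalings than the 1890 of 10180 as deposited. They numbered 2915 of 10180 after median-of-ratios scaling and 2585 of 10180 after quantile normalization. Over protein-coding genes they were 4102 of 11945, and without the 100 most abundant genes 3845 of 15721. With the GC or length trend removed they were 2408 and 2457 of 9278. The length used for ATM, a median over annotated transcripts, was 591 bases. ATR, which senses stalled replication, was at 2.71 and 3.35 TPM against 3.60 and 1.80 TPM, with overlapping libraries (0.16, 95% confidence interval -0.69 to 1.01, adjusted p = 0.773). ATR was called higher with the GC trend removed (adjusted p = 0.0324). After differentiation ATM was second to XRCC6 in TPM among the 37 transcripts, and before it 8 of the 37 had a higher TPM than ATM in both libraries: XRCC6, XRCC5, PRKDC, CHEK1, RAD51AP1, FANCI, RAD51C and MSH6.

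The promoters of CHEK1 and ATM are shown for the member with the lowest log2 difference and the member whose differentiated libraries were higher. They are chr11:125626044-125626223 and chr11:108222887-108223066 of GRCh38.p14 in RefSeq, plus strand, the 180 bases before the most upstream start listed for each gene. Capitals mark the reverse complement of CCAAT in CHEK1. In ATM they mark TTTGAA, the core letters of the cell cycle homology region found in promoters of mitotic genes. ATM also held CCAAT outside the stretch shown: its reverse complement at -188 from the same start, and CCAAT at -56 and 37 from another start. The stretches thus do not show that the 2 genes differ in CCAAT.

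CHEK1: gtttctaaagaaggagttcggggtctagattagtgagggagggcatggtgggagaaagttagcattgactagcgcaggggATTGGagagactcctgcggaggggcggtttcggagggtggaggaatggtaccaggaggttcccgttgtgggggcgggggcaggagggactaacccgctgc

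ATM: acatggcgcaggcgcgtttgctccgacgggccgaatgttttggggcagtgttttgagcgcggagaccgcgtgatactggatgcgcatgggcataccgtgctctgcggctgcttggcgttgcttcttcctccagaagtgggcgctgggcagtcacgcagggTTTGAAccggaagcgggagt

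**Figure D2:**
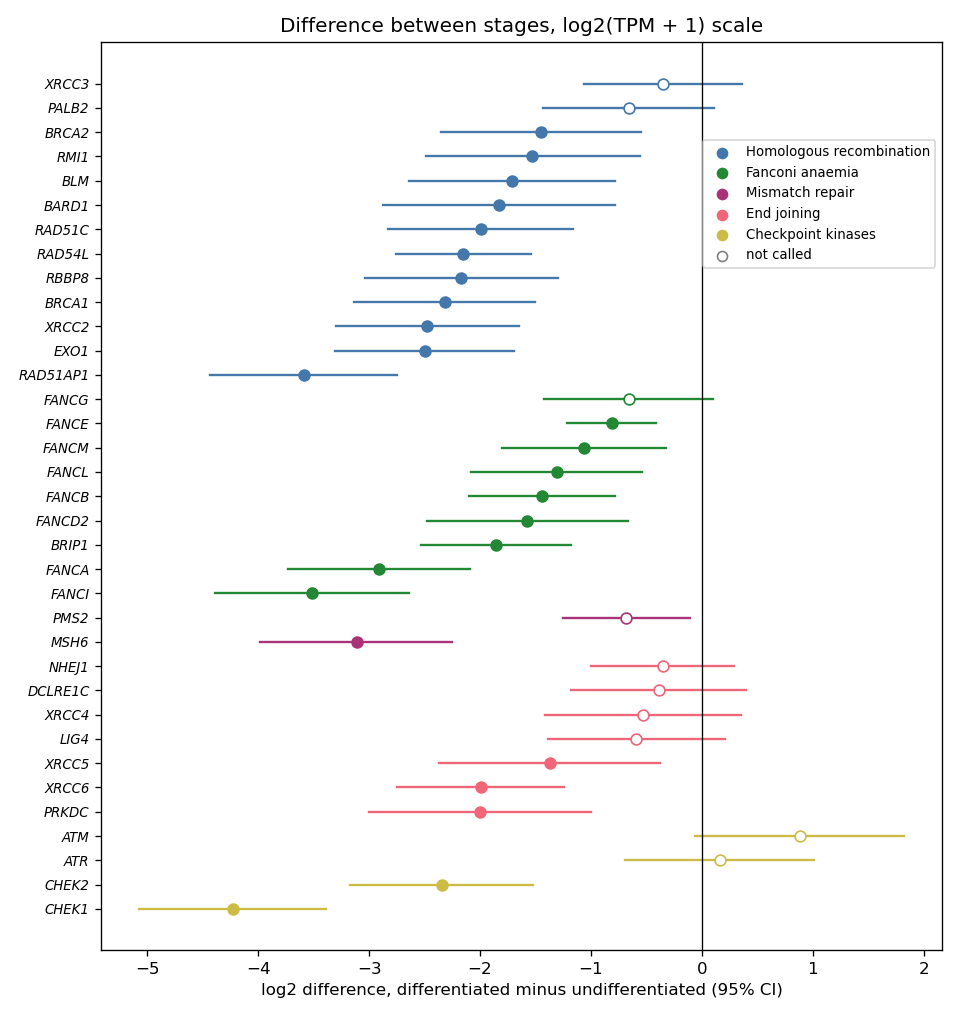
log2 difference between stages, differentiated minus undifferentiated on the log2(TPM + 1) scale, for the 35 tested genes with 95% confidence intervals from limma; colours mark the pathway and open circles genes that were not called. The differences run from -4.23 for CHEK1 to 0.88 for ATM, and the open circles include 4 of the 7 end joining genes.

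RefSeq promoter windows of 250 bases before to 50 bases after the start were searched on both strands for the E2F motifs TTTCCCGC, TTTCGCGC, TTTGGCGC and TTTGCCGC, for TTTGAA and for CCAAT. Windows were found for 34 of the 37 genes, 54 windows in all. An E2F motif lay in 18.5% of these, in 3.31% of all 35116 windows of the table and in 5.27% of the 10996 windows of tested protein-coding genes. The members with an E2F motif were XRCC2, FANCA, FANCC, FANCD2, RMI1, EXO1, MSH6, PMS2 and XRCC6, of which 7 were called lower. Of all 34 members with a window, 22 were called lower. An E2F motif lay in 31.8% of these 22 genes and in 16.7% of the other 12, which include the untested FANCC and FANCF. For CCAAT the shares were 54.5% and 66.7%, and for TTTGAA 4.55% and 16.7%. These are shares of genes, not of windows. Among tested protein-coding genes with a window, 7.27% held an E2F motif, 44.2% CCAAT and 13.8% TTTGAA. Whether a motif goes with the call was not tested. CCAAT lay in 27 of the members' 54 windows against 34.6% of all windows and 35.1% of those of tested protein-coding genes. TTTGAA lay in 5.56% of them against 15.2% and 10.6%. Windows of the proliferation markers described next held an E2F motif in 44.8%, CCAAT in 82.8% and TTTGAA in 20.7%. A match of letters is a description of the window and says nothing of binding in these cells.

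Other repair genes were counted by pathway, to be read against the 22.8% of all tested genes called lower and the 18.6% called higher. Of 29 other homologous recombination genes tested, 13 were called lower and 1 higher (median log2 difference -0.81). Examples are SEM1, a small acidic partner of BRCA2, at 36.68 and 31.75 TPM in differentiated against 221.19 and 170.88 TPM in undifferentiated cells, and POLQ, the polymerase of an alternative joining pathway, at 0.10 and 0.13 TPM against 6.74 and 3.18 TPM. The helicase RECQL5 was called higher at 3.49 and 1.66 TPM against 0.51 and 0.38 TPM (adjusted p = 0.00479). Of 12 other Fanconi genes, 6 were lower and 1 higher. UBE2T, the ubiquitin-conjugating enzyme that serves FANCL, was at 0.44 and 0.49 TPM against 8.48 and 7.74 TPM, and MAD2L2 was at 1.89 and 1.77 TPM against 22.48 and 16.60 TPM. The 1 called higher, UBE2W, was at 3.31 and 3.99 TPM against 1.83 and 0.97 TPM (adjusted p = 0.048). It lost the call with the replicate number as a block (adjusted p = 0.086), with a pseudocount of 0.1 (0.0589) and without differentiated library 1 or 2 (0.284 and 0.365) or undifferentiated library 2 (0.0604).

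Genes of mismatch excision are in large part shared with replication. Of 18 other mismatch repair genes, 14 were called lower and 1 higher (median -1.33). With the replicate block 10 were lower. RFC5, a clamp loader subunit, was at 2.28 and 1.50 TPM against 61.03 and 48.03 TPM, and PCNA, the sliding clamp, was at 9.10 and 13.32 TPM against 198.66 and 121.49 TPM. POLD4, a small subunit of DNA polymerase delta, was the 1 called higher, at 15.25 and 9.28 TPM against 1.24 and 1.33 TPM (adjusted p = 0.000262, and 0.0936 and 0.0575 without differentiated library 1 or 2).

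Of 11 other end joining genes, 6 were called lower and 0 higher (median -1.26). The DNA break sensor PARP1 was at 5.20 and 6.10 TPM against 33.79 and 23.07 TPM. The list also holds DNTT, a B lineage gene, at 1.68 and 1.83 TPM against 188.10 and 107.93 TPM. Of 23 checkpoint adaptors and effectors, 10 were lower and 0 higher (median -0.91). CLSPN, the adaptor through which ATR activates CHEK1, was at 0.20 TPM in both differentiated libraries against 9.47 and 5.09 TPM, and CDC25A, a phosphatase that CHEK1 targets, was at 0.08 and 0.05 TPM against 5.68 and 2.57 TPM.

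Base excision repair mends damaged bases and nucleotide excision repair removes bulky lesions. Of 14 base excision repair genes tested, 7 were lower and 0 higher (median -1.13), with the flap nuclease FEN1 at 1.02 and 2.34 TPM against 15.19 and 9.77 TPM and the abasic site protein HMCES at 1.03 and 1.27 TPM against 7.76 and 5.26 TPM. Of 20 nucleotide excision repair genes, 5 were lower, 1 higher and 14 not called, with a median of -0.35, so the share called lower was near the 22.8% of all tested genes. Over protein-coding genes rescaled alone, 3 of 22 were lower and 7 higher, and with the replicate block 3 and 0. RAD23B, a partner of the damage sensor XPC, was at 22.76 and 19.86 TPM against 74.77 and 63.32 TPM. ERCC8 was at 0.96 and 1.28 TPM against 5.14 and 2.89 TPM. Its partner in transcription-coupled repair, ERCC6, was called higher at 4.67 and 4.86 TPM against 2.22 and 1.36 TPM (adjusted p = 0.0387, 0.0804 with the replicate block, and 0.343 and 0.37 without differentiated library 1 or 2). Over protein-coding genes rescaled alone, where the median of all tested genes was 0.37 and 18.0% were called lower and 34.3% higher, the medians were 0.07 for the other Fanconi genes, 0.22 for base excision repair and 0.18 for nucleotide excision repair. Genes called higher there numbered 6 of 32 for homologous recombination and 3 of 18 for Fanconi. They numbered 3 of 14 for end joining and 4 of 17 for base excision repair. Without a filter on low values, 3 of 32 recombination, 3 of 18 Fanconi and 4 of 19 mismatch repair genes were called lower. So were 2 of 14 end joining, 4 of 24 checkpoint, 0 of 17 base excision and 1 of 22 nucleotide excision repair genes. POLQ, UBE2T, CLSPN and CDC25A had passed that filter only through undifferentiated cells, and RECQL5 only through differentiated ones. Without it UBE2W was not called either (adjusted p = 0.162). Genes called higher without the filter numbered 1 for mismatch repair and 0 for recombination, Fanconi and nucleotide excision repair. In these 7 lists the calls for lower levels numbered 0 to 2 per list when either differentiated library was left out. Without undifferentiated library 2, 18 checkpoint adaptors and 8 nucleotide excision repair genes were called lower.

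**Figure D3:**
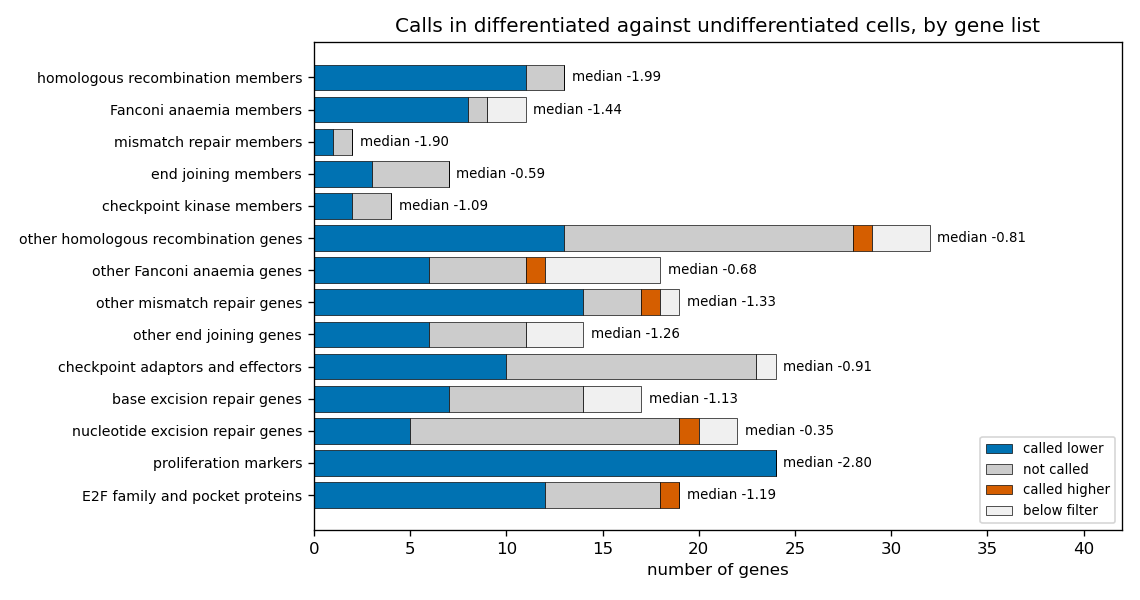
Number of genes called lower, not called, called higher and below the filter on low values for the 5 groups of members and for 9 other lists, with the median log2 difference of the tested genes beside each bar. All 24 proliferation markers were called lower, and 5 of 20 tested nucleotide excision repair genes were.

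Markers of dividing cells moved with the repair genes. Of 24 proliferation markers, 24 were called lower (7 and 10 without differentiated library 1 or 2), with a median log2 difference of -2.80. They summed to 30.8 and 39.3 TPM in differentiated and to 831 and 497 TPM in undifferentiated libraries. MCM4, a subunit of the replicative helicase, was at 9.58 and 12.71 TPM against 387.25 and 220.17 TPM, and RRM2, which makes deoxynucleotides, was at 1.27 and 2.14 TPM against 66.43 and 43.25 TPM. Of 19 E2F family members, pocket proteins and their partners, 12 were lower and 1 higher (2 and 3 lower without differentiated library 1 or 2). MYBL2 was at 0.54 and 0.67 TPM against 24.90 and 14.92 TPM, E2F2 at 0.13 and 0.65 TPM against 12.35 and 8.55 TPM, and LIN37 was higher at 1.72 and 1.85 TPM against 0.11 and 0.25 TPM. Without a filter on low values, 17 of the 24 proliferation markers and 3 of the 19 genes of the E2F list were called lower, and 0 of the 19 higher. MYBL2 and E2F2 had passed that filter only through undifferentiated cells, and LIN37 only through differentiated ones, so these 3 genes had to differ. The part of cell division in the differences of the repair genes was not tested.

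Ratios of 2 TPM values within a library do not depend on how that library is scaled, and 8 were examined. With 2 libraries against 2, an exact two-sided permutation test cannot give a p below 0.333, so they are given as values. The summed recombination and Fanconi genes stood at 0.937 and 0.718 of the summed end joining genes in undifferentiated and at 0.385 and 0.424 in differentiated libraries. The stages did not overlap, and the log2 difference of the ratio was -1.02, from -0.83 to -1.21 with any single library left out. The summed members stood at 0.587 and 0.638 of the summed proliferation markers before differentiation and at 3.11 and 2.38 of them after it. The summed repair transcripts were thus higher relative to the proliferation markers in both differentiated libraries. Such sums weigh the most abundant genes most. Of the 95.6 and 93.5 TPM of all members after differentiation, XRCC6 held 26.83 and 25.19, ATM 19.95 and 15.71, and XRCC5 11.09 and 12.28. XRCC6 also had the highest TPM of the end joining genes in every library.

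Transcripts of partner proteins shifted against each other in several cases. BRCA1, BRCA2, FANCI and CHEK1 were each below 1 TPM in both differentiated libraries, so the ratios that use them are uncertain there. BRCA1 stood at 0.581 and 1.04 of the level of BARD1 before and at 0.216 and 0.335 of it after differentiation. BRCA2 stood at 1.59 and 0.655 of the level of PALB2 before and at 0.268 and 0.44 of it after. ATM stood at 3.93 and 3.24 of the level of ATR before and at 7.36 and 4.69 of it after, so the stages did not overlap for these 3 ratios. The log2 difference of the ATM to ATR ratio was 0.72, and 0.39 without differentiated library 1. That of BRCA2 to PALB2 was -1.57, -0.93 without undifferentiated library 1 and -2.21 without library 2. The ratio of XRCC5 to XRCC6 overlapped, at 0.523 and 0.169 before and 0.413 and 0.487 after, and its log2 difference was 0.59 with all libraries, -0.22 without undifferentiated library 2 and 1.41 without undifferentiated library 1.

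**Figure D4:**
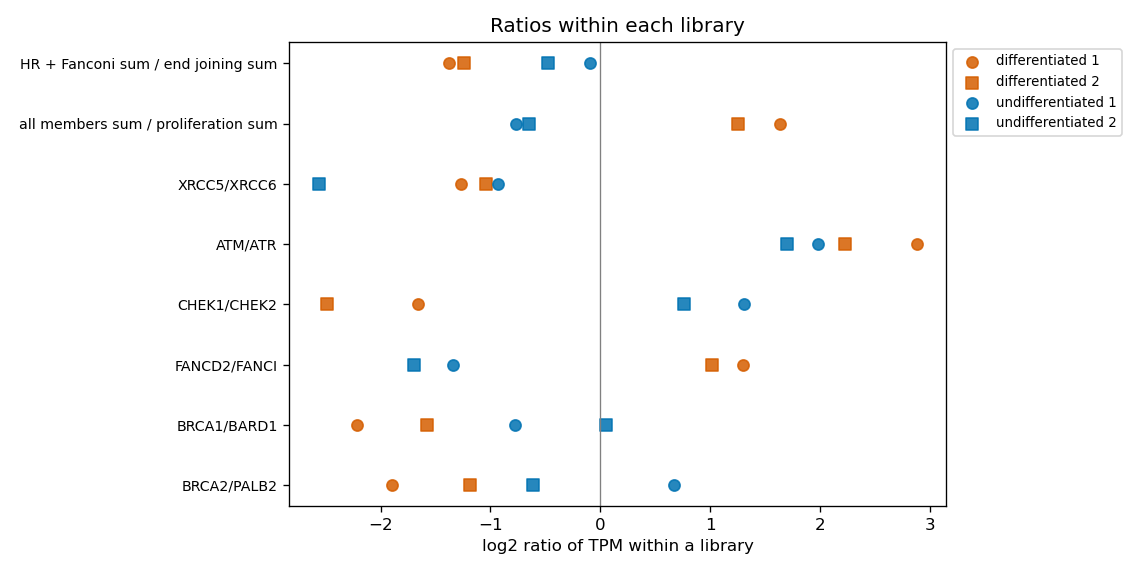
log2 of 8 TPM ratios in each of the 4 libraries, orange for differentiated and blue for undifferentiated cells. The stages are separate in all ratios but that of XRCC5 to XRCC6, and the CHEK1 to CHEK2 and FANCD2 to FANCI ratios lie on opposite sides of 0 at the 2 stages.

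The undifferentiated libraries themselves differed over these genes. Of the 37 genes, 35 were higher in library 1 than in library 2, and 17 were more than 2 times higher, with a median log2 ratio of 0.92. The log2 ratio ran from -0.14 for XRCC6 to 2.00 for BRCA2. Across the 37 genes it correlated with the GC content of their transcripts (Pearson r = -0.66) and with log2 transcript length (r = 0.51), and across 9084 tested protein-coding genes with GC content at r = -0.36. All these points share the same 2 libraries and genes are not independent replicates. GC content and length here are medians over each gene's annotated protein-coding transcripts, which need not be those present in these cells. That median length was 591 bases for ATM and 628 for EXO1. BRCA2 (36.3% GC) and BARD1 (38.1% GC, log2 ratio 1.75) had the widest spread, but RAD51AP1 (36.9% GC) stood at only 0.47. With the GC trend removed in each library, 27 members were called lower and 2 higher, and with the length trend removed 28 and 1.

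**Figure D5:**
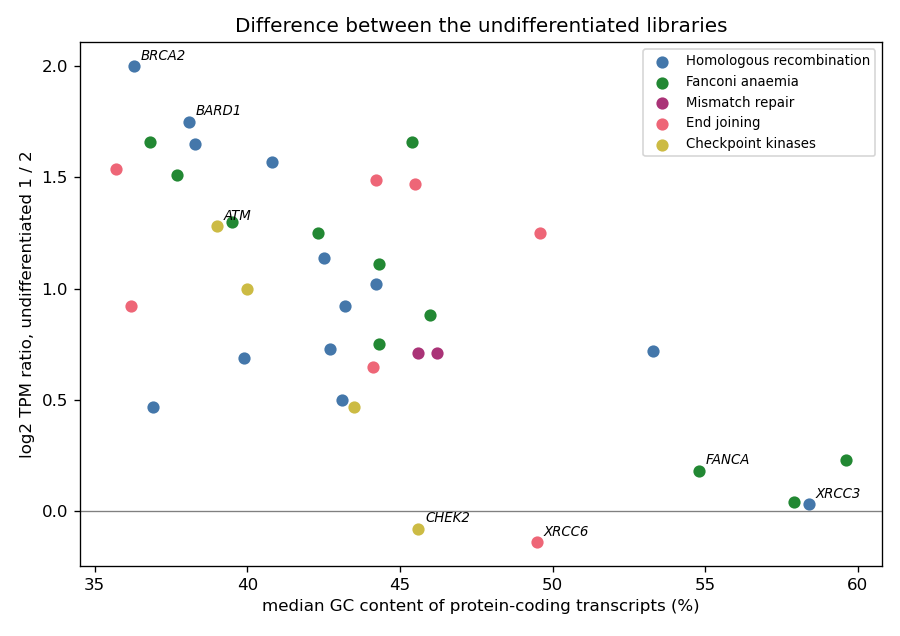
log2 TPM ratio of undifferentiated library 1 to library 2 against the median GC content (%) of each gene's protein-coding transcripts, for the 37 genes coloured by pathway. BRCA2 lies highest at 2.00 and XRCC6 lowest at -0.14, and XRCC3, at 58.4% GC, lies at 0.03.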

How the data were processed

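The deposited values are TPM per gene and library, made by the authors with Trimmomatic, STAR and RSEM, per the submitters' processing notes. The genome build, annotation and tool versions were not given in the sources used here. TPM keep no depth, so no counting error could be computed, and abundant structural RNAs lower the TPM of all other genes of a library. Libraries were made from total RNA with a stranded kit, per the labels' protocols.

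Samples were grouped by their titles, and 0 columns of values were left out. The 10180 genes that reached 1 TPM in 2 or more libraries were compared on log2(TPM + 1) with limma 3.58.1 in R 4.3.3 (moderated variances with a mean-variance trend, two-sided, 2 residual and 10.9 prior degrees of freedom). The procedure was tested on simulated data. These were drawn independently for each gene, with no shift or GC trend between libraries of a stage. They could not show how such differences between libraries affect the calls. GC content, length and gene type came from GENCODE release 29 (58039 of 58302 gene IDs found), which need not be the authors' annotation, and promoters from RefSeq. GC content and length were medians over the protein-coding transcripts of a gene. Alternatives covered the pseudocount, filter, scaling, variance model, replicate block and each library left out. Removal of GC and length trends (lowess, span 0.3, protein-coding genes) was added after seeing the data.

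All members are named. Of each other list, the called genes with the 2 largest differences in the main direction and the 1 largest in the other direction are named. Members and lists were chosen with earlier results of these data known.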

Additional observations from a re-analysis of the deposited data

How the results depend on the processing

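The count of members called lower, 25, was 11 of 12 tested with a minimum of 5 TPM, 9 without a filter, 11 with treat against a log2 difference of 1, and 6 to 30 with a library left out. The count called higher, 0, was 2 with the GC trend removed and 1 with the length trend removed, median-of-ratios scaling, quantile normalization, protein-coding genes rescaled alone or rescaling without the 100 most abundant genes, and 0 to 1 with a library left out. For homologous recombination the count of 11 became 3 with at least 5 TPM, 3 without a filter and 6 with treat, and 1 to 12 with a library left out. For Fanconi anaemia genes the 8 became 2 under each of these 3 settings, and 2 to 9 with a library left out. The 1 mismatch repair call became 2 with the length trend removed, median-of-ratios scaling or quantile normalization, and 1 to 2 with a library left out. The 3 end joining calls became 1 without a filter, 0 with treat, and 0 to 5 with a library left out. The 2 checkpoint kinase calls became 1 to 2 with a library left out. A library left out leaves 1 in its stage, which is then assumed to vary like the other stage. The cause of these changes was not tested, other than fewer genes tested at 5 TPM and fewer libraries. No result changed direction past the threshold. Of the 25 members called lower, 7 kept the call under every alternative with all 4 libraries in which they were tested, 5 with each library left out, and 4 under both. Across genes, the difference between libraries 1 and 2 of one stage did not go with that of the other stage (correlation -0.0237). With only 2 libraries per stage this cannot show whether the numbers pair them. With the replicate block 25 members were called lower and 0 higher. Depth is unknown, so how much of the spread at low TPM is counting error cannot be given.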
